A study of Mus musculus with 4 samples.

Results

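The genes described here are 34 mouse genes of the amino acid and stress programme that the transcription factor ATF4 is known to drive. They were chosen by name from general knowledge of the pathway, with earlier results of these data known. Their values were read from a table of 51826 gene models. Each of the 34 symbols had 1 row in the table, and all 34 passed the filter on low counts that left 19057 models for testing. Messenger RNA was sequenced from primary microglia of C57BL/6 mice, grown from trypsinised newborn brains for 2 weeks in mixed culture and then shaken loose. The 4 libraries comprised 2 mock (untreated) cultures and 2 cultures given lysophosphatidylserine (LysoPS) for 4 h. LysoPS is a phospholipid with a single fatty acid chain and a ligand of the receptor GPR34, which the title of the series names. The treatment protocol speaks of 1 treated replicate, whereas the titles and treatment labels mark 2 libraries as LysoPS; these sample labels were followed. They name no genotype beyond the strain and a WT prefix shared by all 4 libraries. Whether replicates came from separate cultures or litters was not stated, so the p-values measure the spread between these libraries, which may be technical.

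ATF4 is a basic leucine zipper transcription factor whose mRNA is translated mainly when the initiation factor eIF2 is phosphorylated by a stress kinase: PERK for unfolded protein in the endoplasmic reticulum, GCN2 for uncharged tRNA, PKR for double-stranded RNA or HRI for haem shortage. Paired with C/EBP family proteins it binds composite elements and raises the genes of amino acid synthesis, uptake and tRNA charging, together with feedback genes that end the response or lead to cell death. Because much of its control is on translation, the Atf4 transcript level is only part of its activity, and protein was not measured here. In the brain the enzyme PHGDH, which opens serine synthesis, is known to be most abundant in astrocytes.

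The ATF4 genes did not move as a block. The mitochondrial folate enzymes Mthfd2, Shmt2 and Mthfd1l, the arginine transporter Slc7a1, Asns and several stress regulators rose after LysoPS. The serine synthesis enzyme Phgdh, the transporters Slc1a4 and Slc6a9 and the mTORC1 inhibitor Ddit4 fell. Of the 34 genes, 11 were higher and 4 lower at an adjusted p under 0.05 (edgeR quasi-likelihood test, Benjamini-Hochberg over all tested genes), and 19 did not pass. That is 44.1% of the genes, against 25.5% of all 19057 tested genes. By direction, 32.4% were higher against 12.8% of all tested genes, and 11.8% were lower against 12.6%. The median log2 fold change was 0.17, against -0.01 over all tested genes. Rises ranged from 1.35-fold (Mthfd1l) to 3.27-fold (Trib3). Called and changed by at least 2-fold were 5 of the 34 genes, all rises, against 7.79% of all tested genes in either direction. The falls ranged from -0.38 (Slc1a4) to -0.81 (Slc6a9) on the log2 scale. In 28 of the 34 genes (82.4%) the groups did not overlap, against 67% of all tested genes. LysoPS lay above mock in 18 of them, where 32.5% of all tested genes did, and below in 10, where 34.5% did. Of the 19 genes that did not pass, 13 had groups apart. Over all 19 the log2 fold changes ran from -0.58 (Psat1) to 0.73 (Ppp1r15a), and the widest 95% interval reached 1.05 to either side (Fgf21).

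**Figure D1:**
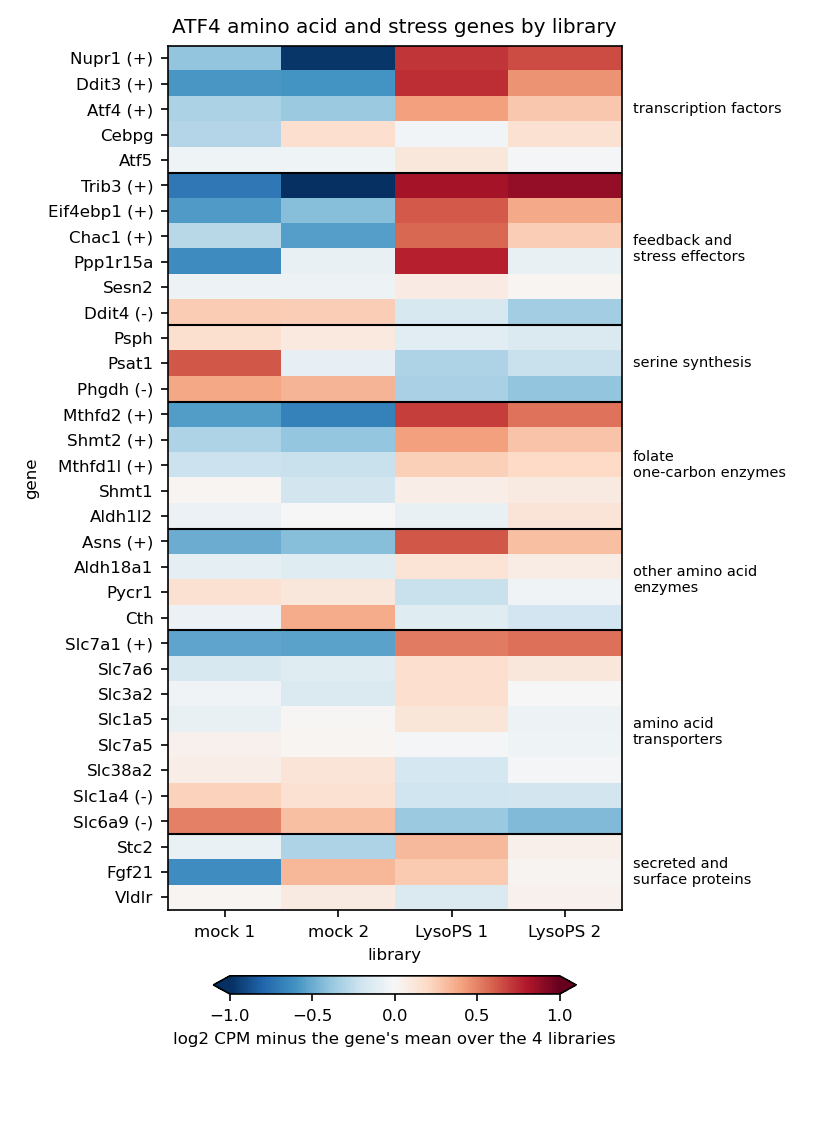
Each row is 1 of the 34 genes, grouped by role, and each column 1 library; colour gives log2 CPM minus the gene's mean over the 4 libraries, and (+) or (-) marks a gene higher or lower at an adjusted p under 0.05. Trib3, Nupr1, Ddit3, Mthfd2 and Slc7a1 are blue in both mock and red in both LysoPS libraries, Phgdh and Slc6a9 show the reverse, and Ppp1r15a is red in LysoPS replicate 1 only.

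**Figure D2:**
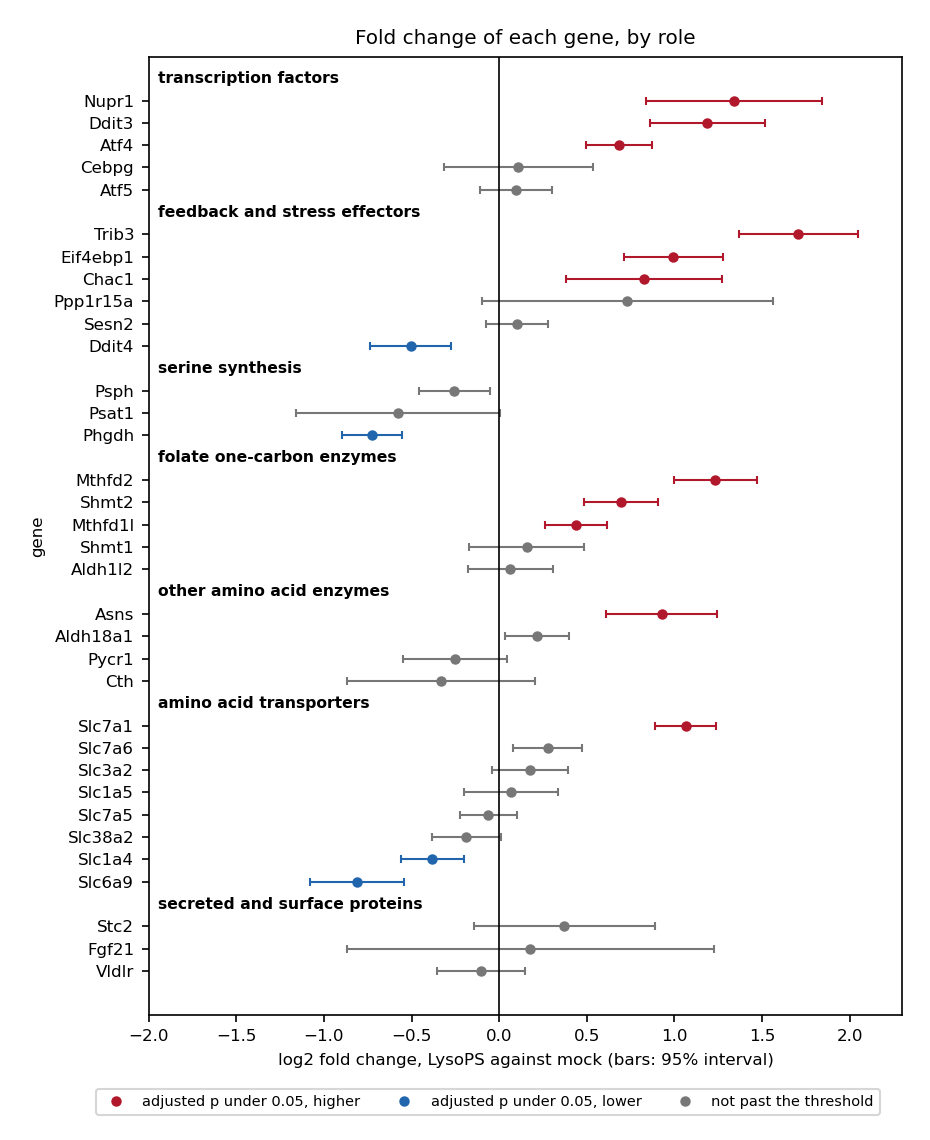
Points give the log2 fold change of LysoPS against mock for each of the 34 genes from 2 libraries per group, and bars its 95% interval; red genes were higher, blue genes lower and grey genes not past the threshold. The 11 rises run from 0.44 to 1.71, the 4 falls from -0.38 to -0.81, and all 3 serine synthesis genes lie left of 0.

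The calls depended on which library was left out. Without mock replicate 1, 9 genes were higher and 2 lower, and without mock replicate 2, 9 and 3. Chac1, Ddit4, Mthfd1l and Slc1a4 lost their calls in both cases, while over all tested genes the number called went from 4856 to 2223 and 2165. All 15 called genes kept their direction under every alternative run. Scaling by library totals alone turned the calls over all tested genes from 2448 higher and 2408 lower to 1821 and 3222, and those of the ATF4 genes to 11 and 5.

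The libraries held 30001098 and 41572340 counts in mock and 34689045 and 45193959 after LysoPS. A member's count in a library ranged from 14 (Fgf21) to 15523 (Slc38a2). Levels below are CPM, counts scaled to a common library size after TMM normalisation, given for replicates 1 and 2, and levels of different genes are compared only as deposited TPM, which corrects for transcript length. The cultures labelled microglia also held RNA of other cells. Summed over 14 astrocyte markers the level was 11740 and 10633 CPM in mock and 5541 and 6294 CPM after LysoPS, and 12 of the 14 markers were lower and none higher (Gfap fell by 1.06 on the log2 scale). Over 18 gene models of 17 microglia and macrophage markers it was 6662 and 6094 CPM in mock and 15967 and 13976 CPM after LysoPS, with 12 higher and 2 lower, or 6 and 1 without mock replicate 2 (Lyz2 rose by 1.80). The 8 fibroblast markers summed to 14491 and 14635 CPM in mock and 11977 and 12339 CPM after LysoPS, with 1 higher and 3 lower. No marker in these 3 lists was at 0. The symbol Itgam has 2 gene models, of which ENSMUSG00000108596 held 1 and 1873 counts in mock and 7768 and 15422 after LysoPS. Oligodendrocyte, neuron and endothelial markers summed to at most 820 CPM in any library, with 4 higher and 1 lower of 9, 1 higher of 8 and 2 lower of 5. The shares called were 85.7% of astrocyte, 77.8% of microglia and macrophage and 50% of fibroblast markers, against 25.5% of all tested genes. They were 55.6% of oligodendrocyte, 12.5% of neuron and 40% of endothelial markers. The part of these cell types in the results below was not tested. In such bulk RNA fewer cells of a type and less RNA per cell cannot be told apart.

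Sequence near the start site was read because ATF4 and C/EBP proteins are known to bind a composite element with the core TGATGNAA. RefSeq promoter windows (GRCm38.p6, from 250 bases before to 50 after a start) were at hand for 29 of the 34 genes. The core was found on either strand in 8 of the 29 (27.6%), against 4.51% of 27025 genes with a window. The genes had been chosen as known ATF4 targets, so this share is a description. Of the 8, Asns, Chac1, Nupr1 and Trib3 were higher after LysoPS, Slc1a4 was lower, and Fgf21, Pycr1 and Vldlr did not pass. Of the 10 higher genes with a window, 6 held no match within it. The 8 stretches of 30 bases follow, read on the strand where the core reads TGATGNAA, with the core in capitals.
Asns: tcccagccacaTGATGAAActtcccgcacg
Chac1: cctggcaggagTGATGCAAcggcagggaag
Nupr1: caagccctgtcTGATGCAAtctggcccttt
Trib3: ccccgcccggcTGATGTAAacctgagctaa
Slc1a4: caggctggagaTGATGCAAcgcaggaggca
Fgf21: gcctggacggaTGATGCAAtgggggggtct
Pycr1: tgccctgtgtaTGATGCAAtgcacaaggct
Vldlr: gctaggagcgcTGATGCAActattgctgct
The Asns stretch lies at chr6:7693214-7693243 on the minus strand, that of Chac1 at chr2:119351038-119351067 on the minus strand and that of Nupr1 at chr7:126625562-126625591 on the plus strand. Those of Trib3 and Slc1a4 lie at chr2:152344028-152344057 and chr11:20332699-20332728, both on the plus strand. The remaining 3 lie at chr7:45615611-45615640 on the plus strand (Fgf21), chr11:120643833-120643862 on the minus strand (Pycr1) and chr19:27216809-27216838 on the minus strand (Vldlr). The variable base was C in 6 of the 8, A in Asns and T in Trib3, and the core with C was found in a gene that fell and in genes that did not pass as well as in genes that rose. In the direction of its gene the core began 193 bases before the start in Chac1 (position -193), at -110 in Nupr1, -23 in Asns and -4 in Slc1a4, and at 15 within the transcript in Trib3. Positions count from the RefSeq start. For Nupr1 the whole window (chr7:126625421-126625720) lies inside the gene model given below.

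The Chac1 promoter is shown at length because its core lies well inside the window. Its plus strand from chr2:119350992-119351191, which covers positions -250 to -51, reads as follows, with the core in capitals in its reverse complement.
Chac1 promoter: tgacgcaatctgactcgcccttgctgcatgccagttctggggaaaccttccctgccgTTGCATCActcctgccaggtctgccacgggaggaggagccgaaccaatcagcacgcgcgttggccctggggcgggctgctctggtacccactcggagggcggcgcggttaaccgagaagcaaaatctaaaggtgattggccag
The ER stress element, CCAAT and CCACG separated by 9 bases and searched on both strands, was in none of the 29 members' windows and in 0.137% of all genes. The cAMP response element TGACGTCA, which reads the same on both strands, was in 1 of the 29 (Ppp1r15a, at -12; 3.45%) and in 2.03% of all genes.

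Among the transcription factors, Atf4, Ddit3 and Nupr1 rose, and Atf5 and Cebpg did not pass. Atf4 (ENSMUSG00000042406, plus strand of chr15:80255184-80257540 in GRCm38) stood at 189 and 181 CPM in mock and 311 and 283 CPM after LysoPS. The groups did not overlap, and the log2 fold change was 0.68 (SE 0.074, 95% interval 0.50 to 0.87, adjusted p = 0.00413). Per length it was second in abundance among the 34 genes in mock, at 233 ± 1.76 TPM behind Slc3a2 at 258 ± 7.35 TPM, and it led after LysoPS at 331 ± 10.7 TPM (SD, n = 2). Ddit3 encodes CHOP, which ATF4 induces and which promotes cell death in prolonged stress (ENSMUSG00000025408, plus strand of chr10:127290774-127296288). It went from 12.1 and 11.9 CPM to 30.2 and 24.7 CPM, a log2 fold change of 1.19 (SE 0.130, adjusted p = 0.00423). Both LysoPS libraries were at least 2 times as high as either mock library. Ddit3 overlaps Mars, the methionyl-tRNA synthetase gene, on the opposite strand, which held 2017 and 2704 counts in mock and 2895 and 3498 after LysoPS. Whether the counting used strand is unknown here, and reads of this pair may not have been told apart. The same holds for other genes with a well-covered model on the opposite strand. Cct6a over Psph held 8365 and 10974 counts in mock and 12267 and 16289 after LysoPS. Smcr8 over Shmt1 held 2257 and 3467, then 3145 and 4526, and D10Wsu102e over Aldh1l2 held 1523 and 2161, then 1781 and 2613.

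Nupr1, a small stress-induced chromatin protein (ENSMUSG00000030717, minus strand of chr7:126623249-126630861), stood at 33.7 and 22.5 CPM in mock and 72.7 and 69.3 CPM after LysoPS. The mock libraries were less alike than the LysoPS libraries, but the groups stayed apart (log2 fold change 1.34, SE 0.197, adjusted p = 0.00935). Atf5, a relative of ATF4 that is also controlled on translation, stood at 50.4 CPM in both mock libraries and at 56.2 and 51.4 CPM after LysoPS (log2 fold change 0.09, 95% interval -0.11 to 0.30, adjusted p = 0.437). The whole interval lies below the estimated rise of every gene called higher, but it overlaps the interval of Mthfd1l (0.26 to 0.61). Nup62, on the strand opposite Atf5, held 638 and 945 counts in mock and 1178 and 3454 after LysoPS. Cebpg, a partner of ATF4 at composite elements, stood at 41.7 and 57.2 CPM in mock and 50.002 and 56.7 CPM after LysoPS. Its groups overlapped (log2 fold change 0.11, 95% interval -0.32 to 0.53, adjusted p = 0.668), and on TPM the sign of both Atf5 (-0.08) and Cebpg (-0.14) turned.

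Of the 6 feedback and stress effectors, Trib3, Eif4ebp1 and Chac1 rose, Ddit4 fell, and Sesn2 and Ppp1r15a did not pass. Trib3 is a pseudokinase that binds ATF4 and AKT and dampens the response (ENSMUSG00000032715, minus strand of chr2:152337422-152344032). It had the largest change of the 34 genes, from 8.63 and 7.07 CPM to 25.2 and 26.0 CPM (log2 fold change 1.71, SE 0.133, adjusted p = 0.00173). The replicates of each group lay close together. Eif4ebp1, which encodes the translation repressor 4E-BP1, went from 34.9 and 38.3 CPM to 78.8 and 67.0 CPM (log2 fold change 0.99, adjusted p = 0.00451). Chac1, which degrades glutathione, went from 6.84 and 5.66 CPM to 12.3 and 9.83 CPM. Its log2 fold change of 0.83 (SE 0.175, adjusted p = 0.0267) lost its call without mock replicate 1 (adjusted p = 0.0533), mock replicate 2 (0.122) or LysoPS replicate 1 (0.0566).

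Ddit4 encodes REDD1, an inhibitor of mTORC1, and moved the other way, from 61.4 and 61.0 CPM to 45.9 and 40.4 CPM (log2 fold change -0.50, SE 0.090, adjusted p = 0.0165). The groups did not overlap, and without either mock library its call was lost (adjusted p = 0.0831 and 0.0840). Sesn2, a leucine sensor that also restrains mTORC1, stood at 71.4 and 71.7 CPM in mock and 78.3 and 75.3 CPM after LysoPS (log2 fold change 0.10, 95% interval -0.08 to 0.28). The upper end of this interval lay below the estimated rise of every gene called higher, of which Mthfd1l had the smallest (0.44). The interval of Mthfd1l (0.26 to 0.61) overlaps that of Sesn2, and the difference was not tested. Ppp1r15a encodes GADD34, which directs a phosphatase to eIF2 and ends the response. It stood at 15.0 and 22.0 CPM in mock and 39.6 and 22.0 CPM after LysoPS. LysoPS replicate 1 was high and replicate 2 was at the level of mock replicate 2, so the log2 fold change of 0.73 (SE 0.326) had an adjusted p of 0.166. Without LysoPS replicate 2 it was 1.10 (adjusted p = 0.0275).

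Of the 3 enzymes that make serine from a glycolytic intermediate, Phgdh fell and the other two did not pass. Of the 5 folate enzymes, the mitochondrial Mthfd2, Shmt2 and Mthfd1l rose and the other two did not pass. The difference between these groups of enzymes was not tested. Phgdh (ENSMUSG00000053398, minus strand of chr3:98313170-98339990), the enzyme of the committed step, fell from 166 and 161 CPM to 101 and 96.2 CPM (log2 fold change -0.73, SE 0.068, adjusted p = 0.00283). Replicates were close in both groups, and the groups were far apart. Psat1, the transaminase of the next step, stood at 220 and 135 CPM in mock and 115 and 122 CPM after LysoPS. The mock libraries differed by more than the nearer one did from LysoPS, and the log2 fold change of -0.58 (95% interval -1.16 to 0.01, adjusted p = 0.130) was -0.89 and past the threshold without mock replicate 2 (adjusted p = 0.0103) but -0.18 without mock replicate 1. Psph, the phosphatase that releases serine, stood at 36.4 and 34.7 CPM in mock and 30.2 and 29.4 CPM after LysoPS (log2 fold change -0.26, adjusted p = 0.0762). Its deposited counts and FPKM imply transcript lengths that differ by 1.42 times between libraries, and in TPM its groups overlapped (65.7 and 49.5 in mock, 52.3 and 49.98 after LysoPS).

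Mthfd2, the mitochondrial folate dehydrogenase and a widely used ATF4 target (ENSMUSG00000005667, minus strand of chr6:83305691-83325908), rose from 28.3 and 26.2 CPM to 67.4 and 60.9 CPM (log2 fold change 1.23, SE 0.093, adjusted p = 0.00160). Shmt2, which splits serine into glycine and a 1-carbon unit in mitochondria, rose from 57.1 and 54.1 CPM to 94.3 and 86.2 CPM (0.70, SE 0.083, adjusted p = 0.00538). Ndufa4l2 on its opposite strand went the other way, from 283 counts in each mock library to 82 and 78. Mthfd1l, which releases formate from mitochondria, rose from 59.2 and 59.1 CPM to 81.1 and 79.1 CPM (log2 fold change 0.44, SE 0.070, adjusted p = 0.0118). In all 3 the groups were well apart, but the Mthfd1l call was lost without mock replicate 1 (adjusted p = 0.0900) or 2 (0.0905). Aldh1l2, which oxidises mitochondrial formyl folate, stood at 48.0 and 49.9 CPM in mock and 47.6 and 54.7 CPM after LysoPS (log2 fold change 0.06, 95% interval -0.18 to 0.31). Shmt1, the cytosolic relative of Shmt2, stood at 8.86 and 7.69 CPM in mock and 9.13 and 9.30 CPM after LysoPS (0.16, 95% interval -0.17 to 0.49), and its implied length differed by 1.35 times between libraries. Neither passed the test, and the groups of Aldh1l2 overlapped.

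**Figure D3:**
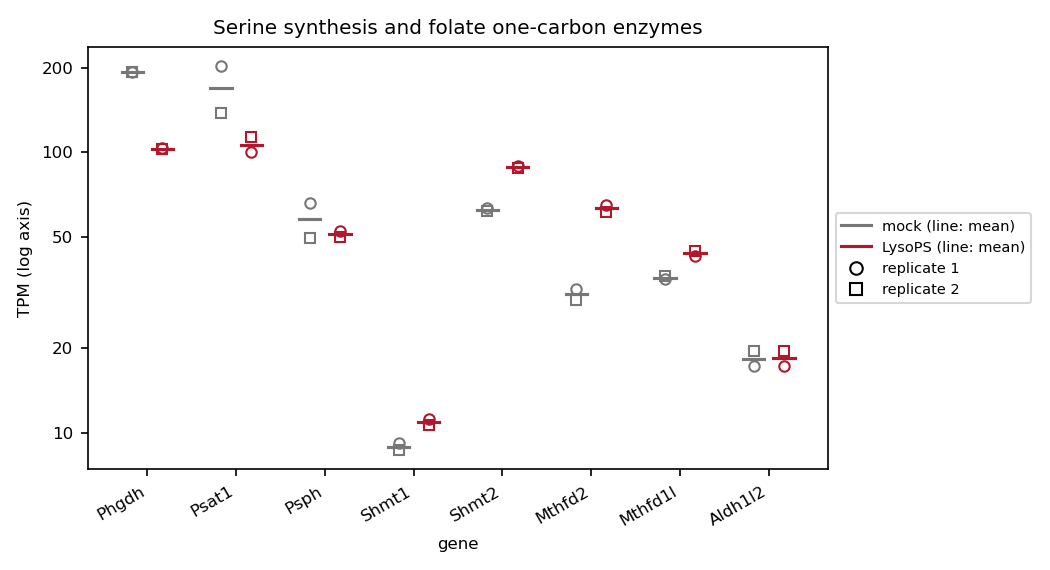
The plot gives the deposited TPM of 8 serine and folate enzymes on a log axis, with mock in grey, LysoPS in red, circles and squares for replicates 1 and 2 and lines for the group means of 2 libraries. Phgdh drops from about 193 to 103 TPM while Shmt2 rises from 62.4 to 88.2 and Mthfd2 from 31.2 to 63.2 TPM, so that Phgdh and Shmt2 nearly meet.

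Within each library, which removes the scaling between libraries, the ratio of Phgdh to Shmt2 in TPM was 3.06 and 3.13 in mock and 1.16 and 1.17 after LysoPS. The ratio of Phgdh to Mthfd2 was 5.94 and 6.47 in mock and 1.59 and 1.67 after LysoPS. Replicates differed far less than groups in both ratios, which were chosen after the values were seen and not tested. Of the astrocyte markers listed above, 12 of 14 were lower after LysoPS. The astrocyte folate dehydrogenase Aldh1l1, which belongs to that list, fell from 323 and 307 CPM to 137 and 150 CPM. The part of astrocyte RNA in the fall of Phgdh was not tested.

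Of the other amino acid enzymes only Asns passed the test. Asns, asparagine synthetase (ENSMUSG00000029752, minus strand of chr6:7675169-7693254), whose promoter stretch is printed above, rose from 42.1 and 44.2 CPM to 91.2 and 72.9 CPM (log2 fold change 0.93, SE 0.125, adjusted p = 0.00755). Aldh18a1 and Pycr1 catalyse early and late steps of proline synthesis. Aldh18a1 stood at 70.8 and 69.2 CPM in mock and 83.0 and 79.6 CPM after LysoPS (log2 fold change 0.22, adjusted p = 0.0861). Pycr1 stood at 15.0 and 14.6 CPM in mock and 11.6 and 13.2 CPM after LysoPS (log2 fold change -0.25, adjusted p = 0.175). The groups of both genes were apart, and the 95% interval of Aldh18a1 (0.03 to 0.40) lay above 0, but neither passed after adjustment over all tested genes. Cth, which makes cysteine from cystathionine, stood at 3.05 and 4.11 CPM in mock and 2.93 and 2.79 CPM after LysoPS (-0.33, 95% interval -0.87 to 0.21).

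The 8 amino acid transporters went in different directions: 1 rose, 2 fell and 5 did not pass. Slc7a1, the cationic transporter CAT1 that imports arginine and lysine (ENSMUSG00000041313, minus strand of chr5:148327410-148399904), rose from 52.4 and 52.2 CPM to 108 and 111 CPM. Its log2 fold change of 1.06 (SE 0.069) had the smallest adjusted p of the 34 genes (0.00107). The replicates were nearly equal in both groups. Slc6a9, the glycine transporter GlyT1 (ENSMUSG00000028542, plus strand of chr4:117834506-117875198), fell from 39.6 and 34.4 CPM to 21.6 and 20.5 CPM (log2 fold change -0.81, SE 0.105, adjusted p = 0.00667). B4galt2, on the strand opposite Slc6a9, held 988 and 1268 counts in mock and 959 and 1147 after LysoPS. Slc1a4, the neutral transporter ASCT1 that carries serine, fell from 121 and 114 CPM to 89.8 and 91.1 CPM (log2 fold change -0.38, SE 0.070, adjusted p = 0.0178), and its call was lost without mock replicate 1 (adjusted p = 0.136) or 2 (0.0824). Both transporters are known in astrocytes, whose markers fell as given above, and the part of astrocyte RNA in their fall was not tested.

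Slc7a5 and Slc3a2 form the large neutral amino acid exchanger LAT1 with its heavy chain 4F2hc. Slc7a5 stood at 123 and 121 CPM in mock and 118 and 116 CPM after LysoPS, and its log2 fold change of -0.06 had a 95% interval from -0.22 to 0.10. Slc3a2 stood at 219 and 203 CPM in mock and 252 and 224 CPM after LysoPS (0.18, 95% interval -0.04 to 0.39). Neither interval reaches the rise of Slc7a1. Within a library the TPM ratio of Slc7a1 to Slc7a5 was 0.217 and 0.218 in mock and 0.458 and 0.481 after LysoPS. Slc38a2, the sodium-coupled neutral transporter SNAT2, stood at 344 and 359 CPM in mock and 291 and 325 CPM after LysoPS (log2 fold change -0.19, adjusted p = 0.140), and without LysoPS replicate 2 it was -0.27 (adjusted p = 0.0454). Slc7a6, a heavy chain partner that exchanges cationic for neutral amino acids, came closest to the threshold from outside, at 32.9 and 33.9 CPM in mock and 41.2 and 39.7 CPM after LysoPS (log2 fold change 0.28, adjusted p = 0.0552). Slc1a5, the glutamine carrier ASCT2, had overlapping groups at 20.05 and 21.3 CPM in mock and 23.0 and 20.3 CPM after LysoPS.

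**Figure D4:**
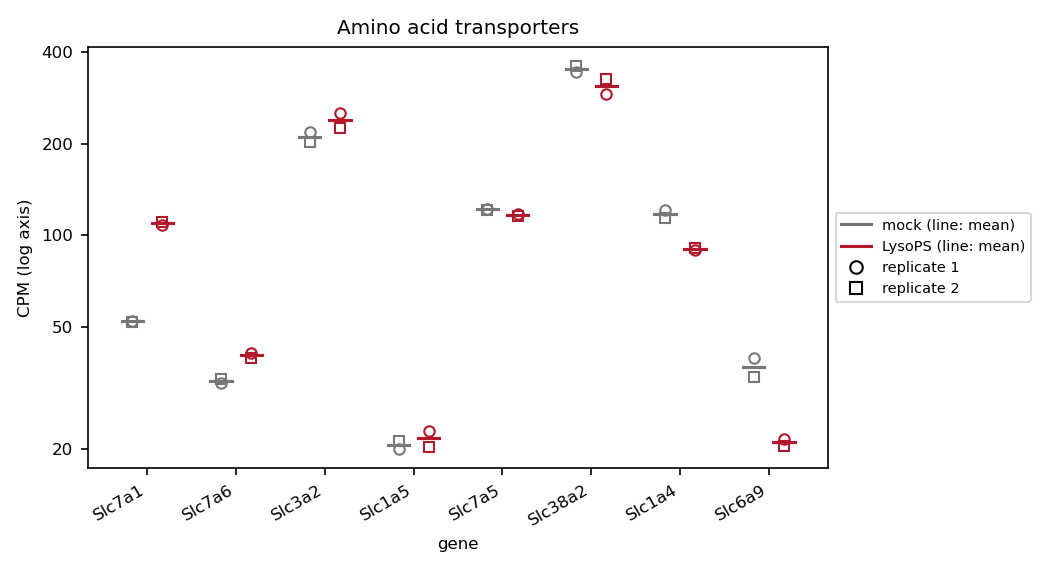
The plot gives CPM of the 8 amino acid transporters on a log axis, with mock in grey, LysoPS in red, circles and squares for replicates 1 and 2 and lines for means of 2 libraries; levels are comparable within a gene, not between genes. Slc7a1 rises from about 52 to 110 CPM, and Slc6a9 and Slc1a4 drop. The other 5 did not pass the threshold, though among them only Slc1a5 has overlapping groups.

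The 3 secreted and surface genes did not pass. Stc2, a secreted glycoprotein induced by endoplasmic reticulum stress, stood at 2.79 and 2.36 CPM in mock and 3.64 and 3.02 CPM after LysoPS (log2 fold change 0.37, 95% interval -0.14 to 0.89). Its implied length differed by 1.38 times, and in TPM its groups overlapped (1.495 and 1.79 in mock, 1.71 and 1.58 after LysoPS). Fgf21, a stress hormone of liver and muscle, was the least abundant, at 0.454 and 0.878 CPM in mock and 0.836 and 0.709 CPM after LysoPS, with 14 to 38 counts per library. Its 95% interval from -0.87 to 1.23 does not separate a doubling from no change at this depth. Vldlr, a lipoprotein receptor, had overlapping groups (31.9 and 33.5 CPM in mock, 28.4 and 32.4 CPM after LysoPS) and implied lengths that differed by 1.31 times.

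Beyond the 34 genes, other parts of the pathway were read from lists that hold none of them. These lists, too, were chosen with earlier results of these data known. Over all tested genes 25.5% were called, 12.8% higher and 12.6% lower. The shares called were 43.8% of the eIF2 list and 52.9% of the bZIP list. They were 66.7% of the other ATF4 targets and 50% of the folding genes. The eIF2 list of 16 genes held the stress kinases, eIF2, its exchange factor and phosphatase, and also Gcn1l1, Impact and Eif2a. Of the 16, 7 were higher and none lower (median log2 fold change 0.26), and Impact (0.31) and Eif2a (0.27) were among the 7. The eIF2 subunits Eif2s1 (from 91.2 and 92.9 to 165 and 153 CPM, 0.79) and Eif2s2 (0.61) had the smallest p, followed by the kinase PKR (Eif2ak2, 0.34) and the subunit Eif2s3x (0.29). Transcripts of the kinases PERK (Eif2ak3) and GCN2 (Eif2ak4) differed by 0.00 on the log2 scale, with 95% intervals from -0.19 to 0.18 (adjusted p = 0.970) and from -0.20 to 0.21 (adjusted p = 0.979). Without mock replicate 1, mock replicate 2 or LysoPS replicate 2 only 2 of the 7 passed. Of 17 bZIP partners and relatives of ATF4, 8 were higher and 1 lower (median 0.46). Cebpd (2.58), Batf (2.89), Cebpb (2.27, from 4.48 and 5.38 to 25.4 and 22.4 CPM) and Jdp2 (1.45) had the smallest p, and 5 of the list were higher without either mock library. Jdp2 and Nfil3 (0.46) also stand in the next list, and both are counted as higher in each.

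Of 36 other ATF4 targets, 22 were higher and 2 lower (median 0.42). Ero1l, an oxidase of disulphide formation (1.13), the autophagy receptor Sqstm1 (1.09) and the stress cytokine Gdf15 (3.37) had the smallest p together with Jdp2. The list holds 13 cytosolic aminoacyl-tRNA synthetases, of which 12 were higher, by 0.32 to 0.77 on the log2 scale, and of the other 23 genes 10 were higher and 2 lower. Without mock replicate 1 or 2 the list's rises numbered 10 and 11, and 5 synthetases passed in each case. On TPM 7 of the synthetases passed. Of 22 folding genes driven mainly by XBP1 and ATF6, 11 were higher and none lower (median 0.47), with Herpud1 (1.27), Sdf2l1 (1.13), Hyou1 (0.68) and Hsp90b1 (0.46) having the smallest p, and 6 and 7 were higher without mock replicates 1 and 2. Microglia and macrophage markers rose in the same libraries (12 of 18), and their part in these rises was not tested.

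The metabolic lists around the 34 genes held falls as well as rises, and the shares called stand against 25.5% of all tested genes. Of 27 tested other serine, glycine and one-carbon enzymes, 4 were higher and 6 lower (37.0%, median 0.05), among them Aldh1l1 (-1.13), Sardh (-0.57), Amt (-0.65) and the purine enzyme Atic (0.52). Without mock replicate 1 none was higher and 1 lower, and without mock replicate 2, 1 and 3. Of 19 other proline, transsulphuration and glutathione enzymes, 2 were higher and 4 lower (31.6%, median -0.08; 1 higher without either mock library), with the cystathionine synthase Cbs (-1.61, from 11.8 CPM in both mock libraries to 3.02 and 4.66 CPM), Oplah (-0.66) and Aldh4a1 (-0.81) down. Of 28 tested other amino acid transporters, 10 were higher and 8 lower (64.3%, median 0.02; 6 and 5 without mock replicate 1, 6 and 4 without mock replicate 2). The histidine and peptide carrier Slc15a3 (2.05), the aromatic amino acid carrier Slc16a10 (1.71) and the cationic exchanger Slc7a7 (1.58) rose, and the astrocyte GABA carrier Slc6a11 (-1.52) fell. This transporter list shares Slc7a11 with the other ATF4 targets and Slc1a2 and Slc1a3 with the astrocyte markers. Of 27 genes of mTORC1 and amino acid sensing, 4 were higher and 3 lower (25.9%), with Sesn1 (-0.64) and Sesn3 (-1.10) down and Rragc (0.42) and Eif4e (0.48) up. Without mock replicate 1 the counts were 1 and 2, and without mock replicate 2, 0 and 1. Over all these lists 66 genes were higher and 24 lower, or 49 and 29 when libraries were scaled by their totals alone.

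**Figure D5:**
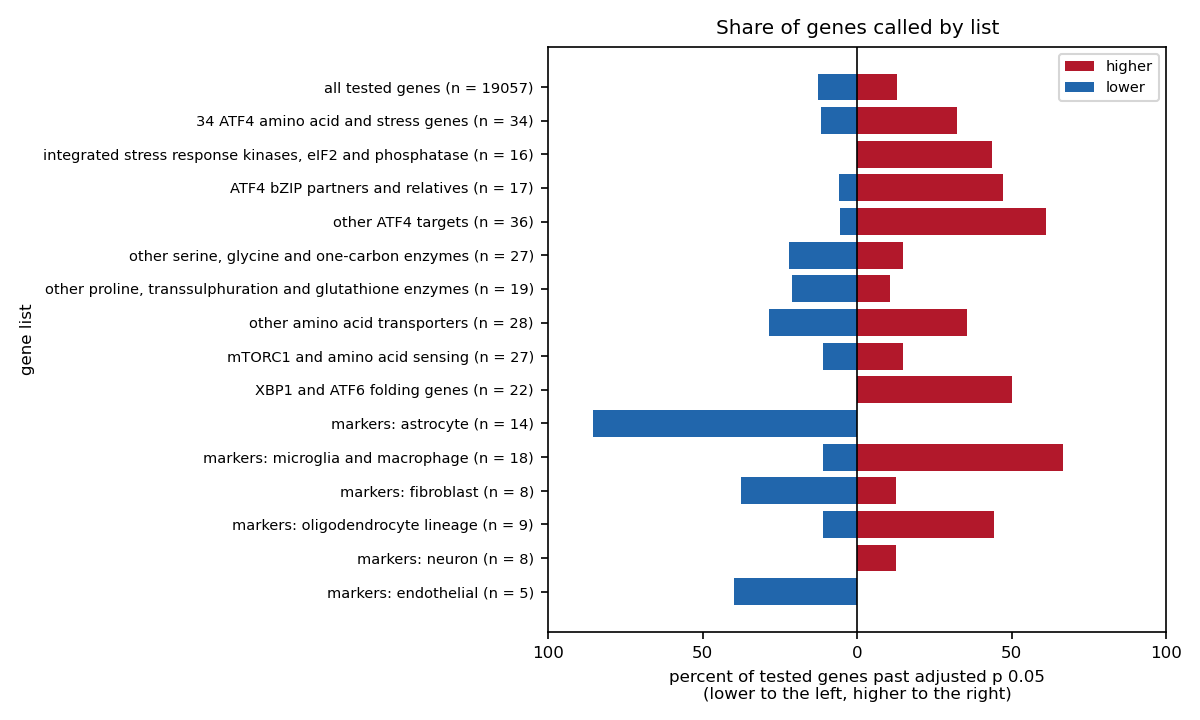
Bars give the percent of tested genes higher (red, right) and lower (blue, left) at an adjusted p under 0.05 for all tested genes, the 34 ATF4 genes, the pathway lists and the cell type marker lists, with the number tested in brackets. Lists of ATF4 targets, bZIP partners, eIF2 genes and folding genes lie mostly to the right, astrocyte markers wholly to the left, and the metabolic and transporter lists on both sides.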

How the data were processed

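The 34 genes and the gene lists were chosen with earlier results of these data known. FastQC 0.11.2, Trimmomatic 0.36, HISAT2, StringTie and the build GRCm38 are named in the submitters' processing notes, which give no counting program or annotation here. The authors deposited raw counts, TPM and FPKM per gene model and library, per the file headers. Counts were analysed in R 4.3.3 with edgeR 4.0.16: filterByExpr (minimum count 10), TMM factors from 0.966 to 1.04 on full library totals, and the quasi-likelihood F test with 2 residual degrees of freedom, two-sided, Benjamini-Hochberg adjusted over 19057 genes (threshold 0.05). The standard error is the fold change divided by the root of F. The deposited TPM compared levels between genes, and the deposited FPKM gave implied transcript lengths. Groups followed the sample titles. All 34 genes, the 4 smallest p of each pathway list (1 gene is not reported here) and single markers were named; the 13 synthetases, the kinase transcripts PERK and GCN2 and the TPM ratios were picked after their values were seen. Alternatives were other scalings (DESeq2 size factors, upper quartile, totals), filters, DESeq2 1.42.0, limma-voom and limma 3.58.1 on log2(TPM + 1), a replicate block and each library left out; removal of length and GC trends was added after the data were seen. Fits were tested on simulated counts. Reads carry no molecular identifiers. Low even counts outnumber odd ones (3582 values of 4, 2547 of 3), so counts may not be independent reads.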

Additional observations from a re-analysis of the deposited data

How the results depend on the processing

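With 2 libraries per group the fit rests on 2 residual degrees of freedom, and a group left with 1 library is assumed to vary like the other. Leaving out a library gave 9 to 12 ATF4 genes higher and 2 to 5 lower, 1161 to 2768 and 986 to 2588 over all tested genes, and 30 to 62 and 13 to 24 over the pathway lists; in each case the lowest count came without a mock library. The replicate block left the ATF4 calls at 11 higher and 4 lower, the same 15 genes, with 2797 and 2636 over all tested genes. The labels do not say whether a number marks a shared culture. Replicate differences correlated by 0.08 between groups over all genes and by -0.26 over the 34 genes. Single genes could differ: the microglia marker Cx3cr1 stood at 132 and 13.4 CPM in mock and 175 and 19.5 CPM after LysoPS. The astrocyte marker Gja1 turned, from 1449 and 619 CPM in mock to 141 and 375 CPM after LysoPS. A shared source of replicates was not tested. By limma on log2(TPM + 1), where the median of all genes shifted by -0.16, 9 ATF4 genes were higher and 5 lower, Chac1 and Mthfd1l lost their calls and Pycr1 gained one; over all tested genes 1353 were higher and 3088 lower, and 34 and 31 over the lists. The cause of these differences was not tested. Under the other scalings, filters and tools the ATF4 genes gave 11 to 13 higher and 4 or 5 lower, and the 15 calls were kept. No called gene changed sign. Among the 19 others the sign changed for Atf5 with library totals (-0.0034) and on TPM (-0.0762), and for Cebpg on TPM (-0.14) and without mock replicate 1 (-0.10), with a range from -0.10 to 0.36 over the left-out libraries. It also changed for Slc1a5 (-0.03 with totals, -0.09 on TPM, -0.03 without LysoPS replicate 1), Aldh1l2 (-0.03 with totals, -0.04 without LysoPS replicate 2), Sesn2 (-0.07 on TPM), Slc3a2 (-0.0045 on TPM) and Fgf21 (-0.19 without mock replicate 1).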
